A study of Mus musculus with 9 samples.

Results

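Rsad2, Cmpk2, Bst2, Ifi44, Ifi35, Ifi27, Xaf1, Lgals9, Lgals3bp and Trim21 are 10 interferon-induced effector genes that act outside the Ifit, Mx and Oas families. They were taken by symbol from the 36410 genes counted by RNA-seq in immortalized mouse striatal cells, and all 10 were found. The 3 STHdh lines differ in the glutamine repeat in exon 1 of Hdh, the mouse huntingtin gene, and the labels give C57/BL6 as the strain of all 3. Control cells (STHdhQ7/Q7) have 7 glutamines on both alleles, HD-het cells (STHdhQ7/Q111) have 7 on 1 allele and 111 on the other, and HD-homo cells (STHdhQ111/Q111) have 111 on both. Each line gave 3 libraries. The labels describe exon 1 as a knock-in in all 3 lines, whereas the study's text traces the control line to wild-type embryos and the HD lines to knock-in embryos. No treatment is given in the labels. Each genotype is 1 line, so genotype and line cannot be told apart. The labels do not say that the 3 libraries of a line are separate cultures, and the p values measure the spread between libraries only.

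Type I interferons bind the Ifnar1 and Ifnar2 receptor chains, whose kinases Jak1 and Tyk2 pass the signal on to transcription factors. Stat2 and Irf9 act in a complex that binds the interferon-stimulated response element (ISRE) in promoters, and Irf1 and Irf7 can bind related elements. The effectors described here are end products of that pathway. Rsad2 encodes viperin, which makes a chain-terminating CTP analogue, and Cmpk2 a mitochondrial nucleotide kinase that supplies its substrate. Bst2 encodes tetherin, a membrane protein that holds budding virions on the cell surface. Ifi44, Ifi35, Ifi27 and Xaf1 encode intracellular interferon-induced proteins, Lgals9 and Lgals3bp encode a galectin and a galectin-binding glycoprotein, and Trim21 encodes a cytosolic antibody receptor and ubiquitin ligase.

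Promoters were read from RefSeq on GRCm38.p6 as 250 bases before to 50 after the annotated start, and 9 of the 10 genes had one in the table. Ifi27 had none. The ISRE core, spelled GAAANNGAAA and searched on both strands, was found in 4 of the 9 promoters (Rsad2, Bst2, Lgals9 and Trim21), beside 3.44% of all 32851 promoters in the table. The 3 windows below hold the copies that lie before the start and so outside the annotated transcript, with the motif in capitals and the gene's own strand written 5′ to 3′.
Bst2, chr8:71537562-71537627, minus strand: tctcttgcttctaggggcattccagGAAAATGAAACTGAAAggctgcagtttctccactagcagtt
Lgals9, chr11:78984945-78985004, minus strand: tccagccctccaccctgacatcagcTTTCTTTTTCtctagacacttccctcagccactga
Rsad2, chr12:26456538-26456597, minus strand: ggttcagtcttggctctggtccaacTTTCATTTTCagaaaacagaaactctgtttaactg
The Bst2 window has 2 overlapping copies, the first of which begins 130 bases before the start. The Lgals9 copy begins 55 bases before the start and the Rsad2 copy 120 bases before it, both on the opposite strand. Lgals9 has a further copy after its start, and both Trim21 copies, which overlap each other, also lie after the start. The gamma-activated site GAS, spelled TTCNNNGAA, was found in the promoters of Bst2 and Ifi35, beside 8.30% of all promoters. In Bst2 it lies before the start and overlaps the first ISRE copy. In Ifi35 it lies after the start, from base 8. A match of letters is a description and not a measured binding site.

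Between 29507665 and 41197931 reads were counted per library. Counts are given as normalized counts per megaread (CPM), and a count of 3 corresponded to between 0.0710 and 0.101 CPM, a floor that covers counting error only. Of all genes listed, 13508 passed the filter on low counts, among them all 10 effectors. Rsad2 and Cmpk2 passed it through the HD-homo libraries alone, so they could be tested only because they were high in that line. The label of striatal cells was checked against markers of striatal projection neurons, and no read was counted on Drd1 in any library. Summed over 10 such markers the level was 90.2 to 100 CPM in control, 115 to 118 CPM in HD-het and 162 to 184 CPM in HD-homo cells, most of it from Foxp1. Another 5 markers, of fibroblasts, summed to 2110 to 2810 CPM, 6340 to 7800 CPM and 5820 to 6330 CPM, most of it from Col1a1. In HD-het cells the markers did not move together, since Col1a1 was higher than in control cells (mean 7097 against 2465 CPM) while Col1a2 (3.15 against 73.4 CPM) and Dcn (1.65 against 4.06 CPM) were lower. In HD-homo cells all 4 tested fibroblast markers were higher than in control cells. Pdgfra was at 306.6 against 5.21 CPM, Col1a2 at 1494 against 73.4, Dcn at 21.5 against 4.06 and Col1a1 at 4234 against 2465 CPM. These marker genes were named after their values were seen.

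In HD-homo cells, 9 of the 10 effector mRNAs were higher than in control cells. The exception was Bst2, whose HD-homo libraries spread around the control libraries. In HD-het cells Ifi44, Ifi35, Ifi27, Xaf1 and Trim21 exceeded control cells, and the other 5 did not pass the test, which was edgeR's quasi-likelihood test with a threshold of 0.05 on the adjusted p. Between the HD lines, 8 effectors were higher in HD-homo cells, Trim21 was lower, and Ifi27 did not pass. These counts stand beside a large number of differences between the lines. Between HD-homo and control cells 58.6% of all tested genes differed, 29.6% being higher and 28.9% lower. Between HD-het and control cells the share was 65.1%, made up of 33.8% higher and 31.4% lower. The HD lines differed from each other in 71.6%, with 36% higher and 35.6% lower in HD-homo cells. Among the 8 effectors that did not depend on the HD-homo libraries to pass the filter, 7 had a higher level there than in control cells. Thus 9 of 10 higher stands beside 29.6% of all tested genes, 5 of 10 beside 33.8%, and 8 of 10 beside 36%. The 9 and the 8 include Rsad2 and Cmpk2, whose calls were in part set by the filter. The effectors were also chosen with earlier results of these data known, so these shares are a description only. The median log2 fold change of the effectors was 5.30 in HD-homo against control cells, where that of all tested genes was 0.0077. It was 1.16 in HD-het against control cells, beside 0.025 for all tested genes, and 2.59 between the HD lines, beside 0.0017. Without Rsad2 and Cmpk2 these medians were 5.025, 1.429 and 1.639 in the same order. A signed median near 0 does not show the usual size of a difference. Without regard to sign, the median log2 fold change of all tested genes was 0.318, 0.401 and 0.464 in that order of comparisons. Between the HD lines 6 of the 8 effectors other than Rsad2 and Cmpk2 were higher in HD-homo cells.

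**Figure D1:**
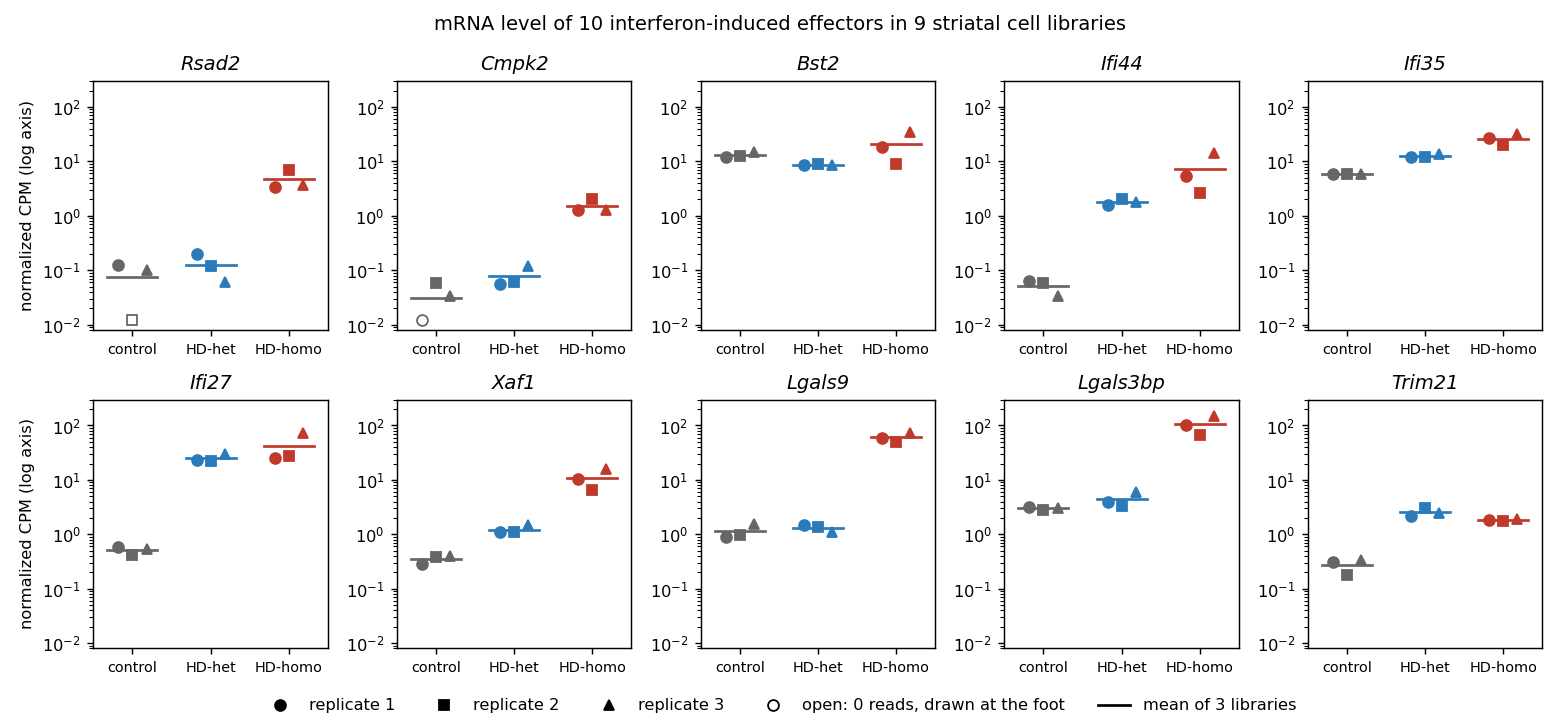
Normalized CPM (log axis) of each of the 10 effectors in the 3 control, 3 HD-het and 3 HD-homo libraries; symbols are single libraries, open symbols mark 0 reads, and bars are means of 3. HD-homo libraries lie above control libraries for every gene but Bst2, while Rsad2, Cmpk2 and Lgals9 show overlapping control and HD-het libraries.

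Rsad2 and Cmpk2, the nucleotide enzymes, were near the floor in both control and HD-het cells. Rsad2 received 4, 0 and 3 reads in control, 7, 4 and 2 in HD-het, and 111, 294 and 121 in HD-homo libraries. The HD-homo libraries lay far above all others, and the control and HD-het libraries overlapped. In normalized CPM, control cells had 0.0753 ± 0.0662 of Rsad2 (SD, n = 3), HD-het cells 0.126 ± 0.0689 (SD, n = 3) and HD-homo cells 4.66 ± 2.00 (SD, n = 3). The ratio of HD-homo to control reads, scaled to the library totals, was 66.1 with a 95% counting interval from 31.9 to 165, and the log2 fold change was 5.93 (SE 0.533, edgeR adjusted p = 2.6e-06). It was 6.52 without control replicate 1 and 5.33 without control replicate 2. Set against HD-het cells, it was 5.16 (SE 0.478, edgeR adjusted p = 2.2e-06). The HD-het to control ratio was 1.74, with a counting interval from 0.646 to 5.16 (adjusted p = 0.50), so a difference of Rsad2 between these lines was not detectable at this depth.

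Cmpk2 followed with lower counts. It had 0, 2 and 1 reads in control, 2, 2 and 4 in HD-het, and 41, 86 and 43 in HD-homo libraries. The same HD-homo library, replicate 2, was highest for both enzymes. The mean level of Cmpk2 was 0.0311 ± 0.0298 CPM (SD, n = 3) in control, 0.0790 ± 0.0354 CPM (SD, n = 3) in HD-het and 1.53 ± 0.443 CPM (SD, n = 3) in HD-homo cells. The ratio of HD-homo to control reads on Cmpk2 was 49.9, and because it rests on 3 control reads in all its counting interval runs from 16.8 to 244 (log2 fold change 5.46, SE 0.495, adjusted p = 2.8e-06 from edgeR's test, or 6.28 without control replicate 2). Against HD-het cells the log2 fold change of Cmpk2 was 4.23 (adjusted p = 3.3e-06), and between HD-het and control cells it was 1.23 and did not pass (adjusted p = 0.24).

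Rsad2 and Cmpk2 are neighbours on mouse chromosome 12 of GRCm38. Rsad2 lies on the minus strand from 26442746 to 26456452 and Cmpk2 on the plus strand from 26469204 to 26479837, so they are transcribed away from each other across 12751 bases in which 0 other genes are annotated. For each Cmpk2 read, 2.71, 3.42 and 2.81 Rsad2 reads were counted in the 3 HD-homo libraries. The ratio thus varied less between these libraries than either count. Summed over libraries, HD-homo cells gave 526 Rsad2 and 170 Cmpk2 reads, HD-het cells 13 and 8, and control cells 7 and 3. With so few reads in the latter lines, the ratio there is poorly determined. A comparison between lines is given with the alternatives at the end, and no conclusion is drawn from it.

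Bst2 stood apart from the other 9, since it did not pass the test in HD-homo against control cells. Like Ifi35, Bst2 was well expressed in all 3 lines. Control libraries had 391, 429 and 432 reads, HD-het libraries 304, 292 and 288, and HD-homo libraries 607, 379 and 1178. The HD-het libraries were all below the control libraries, whereas the HD-homo libraries fell on both sides of them. The level of Bst2 was 13.2 ± 1.27 CPM (SD, n = 3) in control cells, 8.70 ± 0.177 CPM (SD, n = 3) in HD-het cells and 20.9 ± 13.2 CPM (SD, n = 3) in HD-homo cells. HD-homo and control cells differed by less than the spread between the HD-homo libraries, with a log2 fold change of 0.66 (SE 0.352, edgeR adjusted p = 0.13). Single HD-homo libraries decided this value of Bst2: it was 1.03 without replicate 2 (adjusted p = 0.0013) and 0.05 without replicate 3 (adjusted p = 0.86). In HD-het against control cells it was -0.60 (adjusted p = 0.17), and a fit to these lines alone, which leaves out the wide HD-homo spread, gave -0.60 with an adjusted p of 1.8e-04. Between the HD lines Bst2 passed the test, higher in HD-homo cells by a log2 fold change of 1.26 (SE 0.361, edgeR adjusted p = 0.0085), which was 0.65 without HD-homo replicate 3 (adjusted p = 0.027).

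The intracellular proteins Ifi44, Ifi35, Ifi27 and Xaf1 were all higher in both HD lines than in control cells. For Ifi44, a cytosolic antiviral protein, 2, 2 and 1 reads were counted in control, 57, 66 and 59 in HD-het, and 175, 110 and 471 in HD-homo libraries. The 3 lines did not overlap, and the HD-homo libraries were the most dispersed, with 7.34 ± 5.97 CPM (SD, n = 3) against 1.79 ± 0.204 CPM (SD, n = 3) in HD-het and 0.0518 ± 0.0157 CPM (SD, n = 3) in control cells. The ratio to control reads of Ifi44 was 34.1 in HD-het cells, with a 95% counting interval from 14.4 to 106, and 133 in HD-homo cells, with an interval from 56.8 to 411. By edgeR's quasi-likelihood test the log2 fold changes were 5.00 (SE 1.01, adjusted p = 0.0011) and 7.02 (SE 0.852, adjusted p = 3.1e-05), the latter 6.13 without HD-homo replicate 3. Between the HD lines Ifi44 differed by a log2 fold change of 2.02 (adjusted p = 0.0030), or 1.13 without HD-homo replicate 3 (adjusted p = 0.0028).

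Ifi27, a small protein of mitochondrial and nuclear membranes linked to apoptosis, was high in both HD lines. Its control libraries had 19, 14 and 16 reads, the HD-het libraries 841, 715 and 1015, and the HD-homo libraries 823, 1141 and 2401. Both HD lines were far above control cells, and they overlapped each other. The normalized level of Ifi27 was 0.516 ± 0.0900 CPM (SD, n = 3) in control cells, 25.3 ± 4.52 CPM (SD, n = 3) in HD-het cells and 41.3 ± 26.3 CPM (SD, n = 3) in HD-homo cells. This was 49.0-fold higher in HD-het cells (log2 fold change 5.61, SE 0.524, adjusted p = 3.6e-06 from edgeR's test) and 80.0-fold higher in HD-homo cells (6.32, SE 0.516, adjusted p = 1.2e-06, or 5.66 without HD-homo replicate 3) than in control cells. The difference between the HD lines, 0.70 on the log2 scale (SE 0.328, adjusted p = 0.074), was not larger than the spread. Without HD-homo replicate 3 it was 0.04 (adjusted p = 0.78), and without HD-homo replicates 1 or 2 it passed the test, at 0.96 (adjusted p = 0.018) and 0.94 (adjusted p = 0.020).

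Like Ifi44, Ifi35 and Xaf1 rose in steps from control to HD-het and from HD-het to HD-homo cells. Ifi35, which forms a complex with Nmi, had 185, 200 and 172 reads in control, 429, 391 and 448 in HD-het, and 879, 844 and 1056 in HD-homo libraries. The 3 lines did not overlap and the control libraries lay close together, with a coefficient of variation of 1.68%. The means of Ifi35 were 5.84 ± 0.0982 CPM (SD, n = 3) in control, 12.5 ± 0.819 CPM (SD, n = 3) in HD-het and 26.1 ± 5.80 CPM (SD, n = 3) in HD-homo cells. Ifi35 had a log2 fold change of 1.10 between HD-het and control cells (SE 0.152, edgeR adjusted p = 7.4e-05), 2.16 in HD-homo against control cells (SE 0.150, adjusted p = 3.1e-07) and 1.06 between the HD lines (adjusted p = 3.6e-05). Ifi35 overlaps the antisense gene Gm11626 on the opposite strand. The libraries were directional, but the strand setting of the counting is not given in the sources used here, so reads from Gm11626 could be included.

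Xaf1 encodes a binding partner and antagonist of the apoptosis inhibitor Xiap. It had 9, 13 and 12 reads in control, 39, 36 and 49 in HD-het, and 340, 274 and 533 in HD-homo libraries, again without overlap. Normalized, this was 0.357 ± 0.0677 CPM (SD, n = 3), 1.22 ± 0.213 CPM (SD, n = 3) and 10.9 ± 4.72 CPM (SD, n = 3) in that order of lines. It was 3.42-fold higher in HD-het than in control cells (log2 fold change 1.76, SE 0.458, adjusted p = 0.0055 from edgeR's test) and 30.6-fold higher in HD-homo cells (4.92, SE 0.374, adjusted p = 6.5e-07). Between the HD lines the log2 fold change of Xaf1 was 3.15 (adjusted p = 3.3e-06). Of the 50-base words of its transcripts, 1.61% also occur in other genes, so a small part of its reads could have been counted elsewhere.

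Lgals9 and Lgals3bp separated HD-homo cells from both other lines. Lgals9 encodes galectin-9, a secreted lectin that binds the receptor Tim-3. On it, 29, 32 and 46 reads were counted in control, 53, 44 and 37 in HD-het, and 1900, 2068 and 2474 in HD-homo libraries. Control and HD-het libraries overlapped, and every HD-homo library was far above them. Lgals9 was measured at 1.14 ± 0.364 CPM (SD, n = 3) in control, 1.31 ± 0.194 CPM (SD, n = 3) in HD-het and 60.3 ± 12.5 CPM (SD, n = 3) in HD-homo cells. The last level was 53.1-fold that of control cells (log2 fold change 5.74, SE 0.211, edgeR adjusted p = 1.6e-09) and 45.9-fold that of HD-het cells (5.51, adjusted p = 1.4e-09). The HD-het to control ratio of reads was 1.17, with a counting interval from 0.904 to 1.53 (adjusted p = 0.51).

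Lgals3bp, whose product binds galectin-3, had the most reads of the 10 genes in HD-homo cells. Its control libraries held 104, 96 and 89 reads, the HD-het libraries 138, 109 and 201, and the HD-homo libraries 3395, 2809 and 4995. In CPM, control libraries lay just below HD-het libraries, without overlap, and the HD-homo libraries stood clear of both. Lgals3bp was at 3.03 ± 0.191 CPM (SD, n = 3) in control, 4.41 ± 1.42 CPM (SD, n = 3) in HD-het and 106.5 ± 41.3 CPM (SD, n = 3) in HD-homo cells, which is 35.1-fold above control cells (log2 fold change 5.13, SE 0.311, adjusted p = 9.6e-08 from edgeR's test). Against HD-het cells it was 24.1-fold higher (4.59, adjusted p = 1.1e-07). The value for Lgals3bp in HD-het against control cells was 0.54 (adjusted p = 0.19), and a fit to these lines alone gave the same size with an adjusted p of 0.038.

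Trim21 was the effector with its highest level in HD-het cells. It had 10, 6 and 10 reads in control, 76, 100 and 82 in HD-het, and 60, 75 and 63 in HD-homo libraries. Both HD lines were clear of the control libraries, and the HD-het libraries lay above the HD-homo libraries by a small margin. The HD-het mean of Trim21 was 2.55 ± 0.460 CPM (SD, n = 3), that of HD-homo cells 1.83 ± 0.0520 CPM (SD, n = 3) and that of control cells 0.276 ± 0.0855 CPM (SD, n = 3). Trim21 was 9.24-fold higher in HD-het than in control cells (log2 fold change 3.20, SE 0.248, edgeR adjusted p = 8.9e-07) and 6.64-fold higher in HD-homo cells (2.73, SE 0.255, adjusted p = 3.6e-06). From HD-het to HD-homo cells it fell by 0.48 on the log2 scale (adjusted p = 0.037). That call on Trim21 was lost with DESeq2 (adjusted p = 0.087), without HD-het replicate 2 (-0.33, adjusted p = 0.16) or 3 (adjusted p = 0.053), and without HD-homo replicate 1 (adjusted p = 0.071) or 2 (adjusted p = 0.080).

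**Figure D2:**
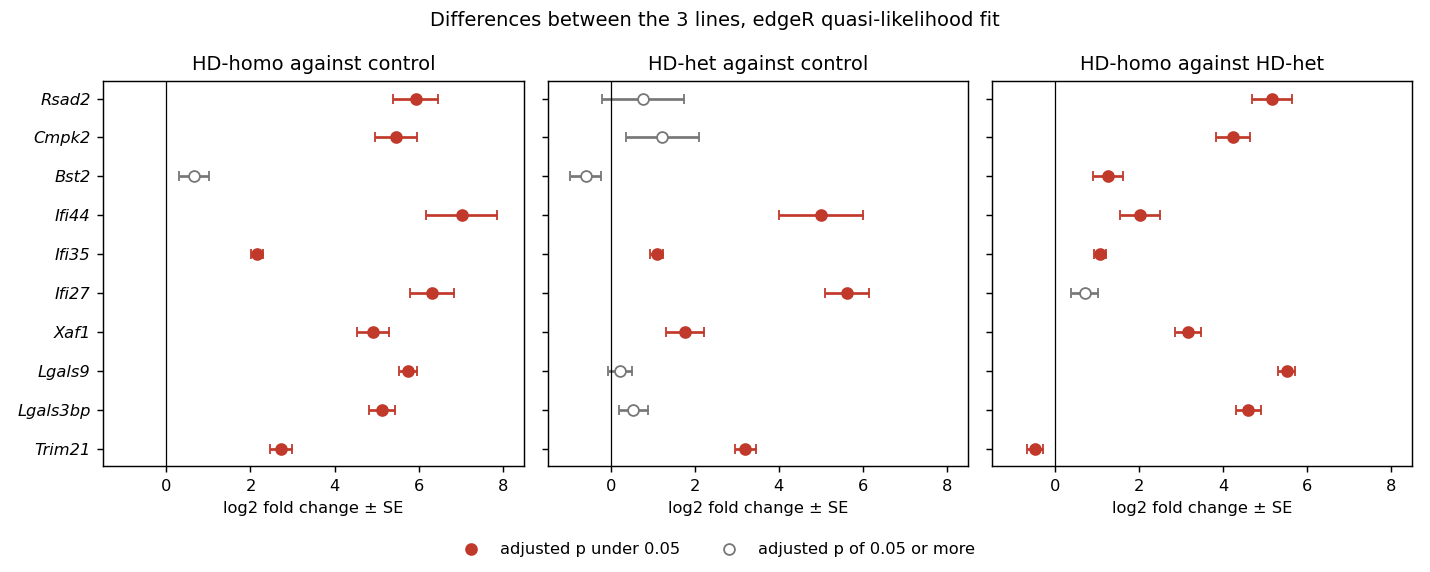
Log2 fold changes ± SE from edgeR's quasi-likelihood fit for the 10 effectors in the 3 comparisons; filled points have an adjusted p under 0.05. In HD-homo against control cells the values run from 0.66 (Bst2, open) to 7.02 (Ifi44), and in HD-het against control cells the filled points are Ifi44, Ifi35, Ifi27, Xaf1 and Trim21.

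Divided by the length of merged exons, the levels could be compared between genes. In control cells Bst2 was highest, at 14.6 CPM per kilobase, followed by Ifi35 at 3.38 and Lgals3bp at 1.07 CPM per kilobase, and Cmpk2 and Ifi44 were lowest, at 0.0075 and 0.0085 CPM per kilobase. In HD-het cells Ifi27 was highest, at 17.2 CPM per kilobase, ahead of Bst2 at 9.63 and Ifi35 at 7.23 CPM per kilobase. In HD-homo cells Lgals3bp came first at 37.4 ± 14.5 CPM per kilobase (SD, n = 3), then Lgals9 at 28.2 ± 5.87, Ifi27 at 28.1 ± 17.9, Bst2 at 23.2 ± 14.7 and Ifi35 at 15.1 ± 3.36 CPM per kilobase. Each of these lies within the larger SD of itself and its neighbour in the HD-homo order, so that order is not fixed by 3 libraries. Xaf1 (2.33), Ifi44 (1.20), Rsad2 (1.07), Trim21 (0.493) and Cmpk2 (0.366 CPM per kilobase) formed a lower group in that line.

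**Figure D3:**
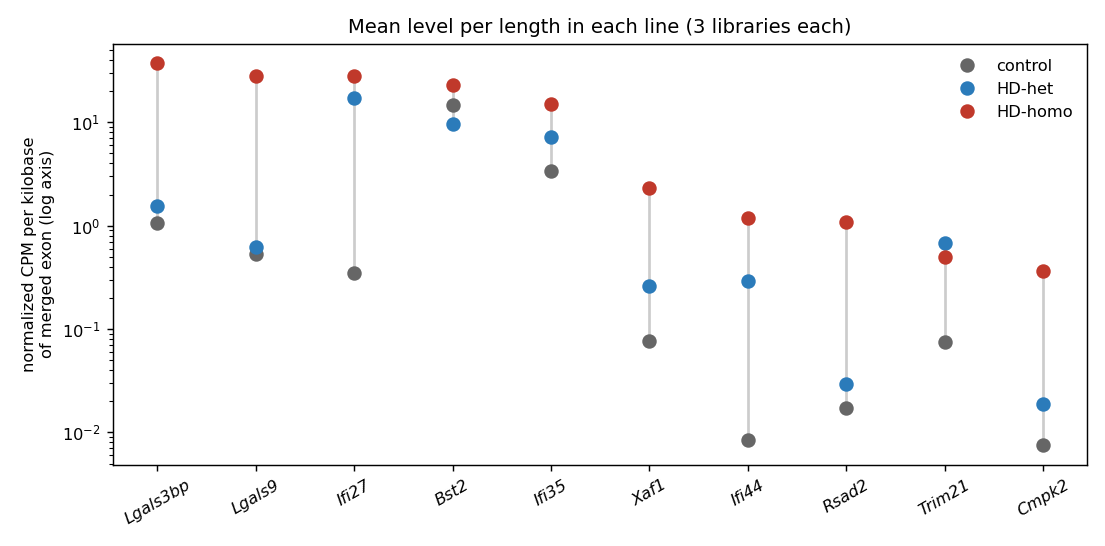
Mean normalized CPM per kilobase of merged exon (log axis) of the 10 effectors in each of the 3 lines (3 libraries each), sorted by the HD-homo level. Bst2 spans the narrowest range, from 9.63 in HD-het to 23.2 in HD-homo cells, and Lgals9 and Lgals3bp have control and HD-het points close together below a distant HD-homo point.

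The genes lie on several chromosomes of GRCm38. Besides the pair on chromosome 12, Ifi27 is on the plus strand of the same chromosome from 103434211 to 103440239. Chromosome 11 holds Xaf1 on the plus strand from 72301629 to 72313733, Lgals9 on the minus strand from 78962974 to 78984946, Ifi35 on the plus strand from 101448407 to 101458698 and Lgals3bp on the minus strand from 118392751 to 118402092. Bst2 is on the minus strand of chromosome 8 from 71534255 to 71537456, Ifi44 on the minus strand of chromosome 3 from 151730922 to 151749960 and Trim21 on the minus strand of chromosome 7 from 102557921 to 102565486. Counts are sums over all transcripts of a gene.

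The HD-homo libraries differed more among themselves for these genes than for most. The median coefficient of variation of the 10 effectors was 40.8% in HD-homo cells, beside 9.12% for all tested genes, 17.6% beside 7.10% in HD-het cells, and 24.6% beside 5.46% in control cells, where several counts are near 0. Replicate 3 was the highest HD-homo library for 8 of the 10 effectors and replicate 2 for Rsad2 and Cmpk2. From replicate 2 to replicate 3, Ifi44 was 5.39-fold higher, Bst2 3.91-fold, Ifi27 2.65-fold, Xaf1 2.45-fold and Lgals3bp 2.24-fold, whereas Trim21 differed by 1.06-fold. Rsad2 and Cmpk2 went the other way and were 1.93-fold and 1.59-fold higher in replicate 2. Over all tested genes the median fold between these libraries, either way, was 1.13, and replicate 3 was highest for 33.6%. Among 33 other interferon-stimulated genes, replicate 3 was highest for 27 (81.8%), and Cxcl10 and Ifit2 were 1.83-fold and 1.70-fold higher in replicate 2 than in replicate 3. Cxcl10 was named after its values were seen. What set these libraries apart was not tested.

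**Figure D4:**
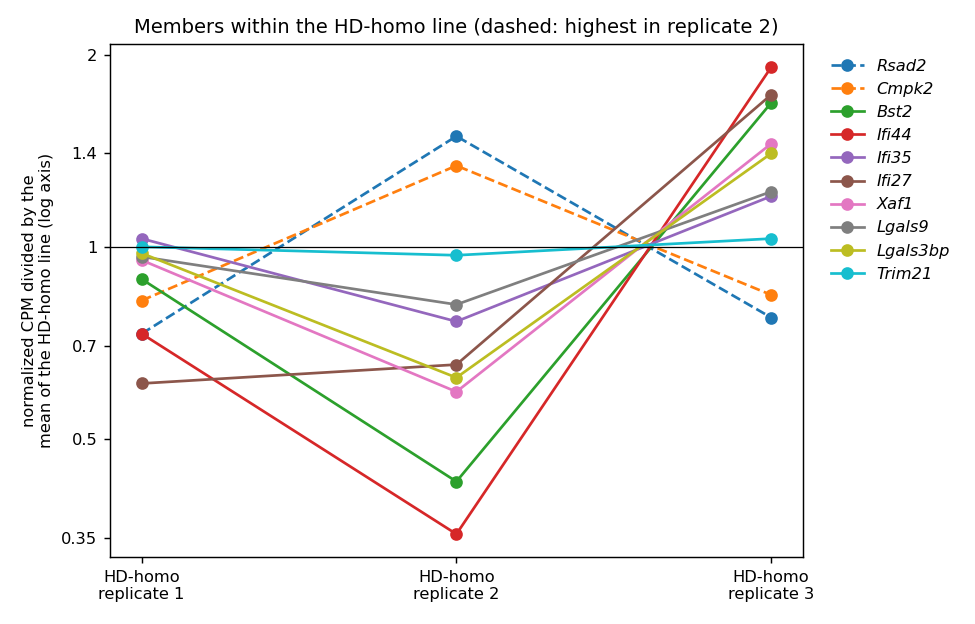
Normalized CPM of each effector in the 3 HD-homo libraries, divided by its mean in that line (log axis); the lines join the values of 1 gene and imply no order of the libraries. Rsad2 and Cmpk2 (dashed) peak in replicate 2, the other 8 in replicate 3, and Ifi44 and Bst2 spread most, from 0.355 to 1.91 and from 0.429 to 1.68.

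The pathway around the effectors was described with gene lists. No read was counted on Ifnb1, Ifna2, Ifna4, Ifng, Ifnl2 or Ifnl3 in any library, and Ifnk and Ifne had at most 2 reads, so the mRNA of these 8 interferons was not detectable at this depth. Of 10 genes for the receptor, its kinases and the transcription factors, 8 passed edgeR's test as higher and 1, Irf3, as lower when HD-homo cells were set against control cells, with a median log2 fold change of 0.46. Among all tested genes 29.6% were higher and 28.9% lower in that comparison. Irf7 had the largest value, 6.92 (adjusted p = 2.9e-07), and Irf9 was at 2.29 and Stat2 at 1.79. The receptor chain Ifnar1 did not pass, at 0.12 (adjusted p = 0.21). In HD-het cells, where 33.8% of all tested genes were higher and 31.4% lower, 9 of the 10 were higher and Irf1 was lower, with Irf7 at 3.20, Irf9 at 0.81 and Stat2 at 0.29, and a median of 0.41.

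Among the other interferon-stimulated genes, 31 of 33 were tested. In HD-homo against control cells 30 were higher and Ifit2 was lower, with a median log2 fold change of 3.41, beside 29.6% higher among all tested genes. Of these genes 7 (Mx1, Mx2, Oas1a, Oasl1, Psmb8, Usp18 and Zbp1) reached the cutoff of the filter in HD-homo libraries alone. Of the remaining 24, 23 were higher, with a median of 2.79. The 24 still hold Ifit1, Oasl2, Oas3 and Sp100, which reached the cutoff in 1 library of the other lines. These genes too could be tested only because they were high in HD-homo cells, so 23 of 24 is in part set by the filter. Those 7, Oasl2, Oas3 and Sp100 are named for that reason and not by their rank. Oasl1, an Oas-like protein, had no read in any control library and 229, 384 and 243 in the HD-homo libraries, which puts it at least 82.3-fold higher against a floor of 3 counts per library. For the antiviral genes Oas1a and Ifit1, with at most 4 reads in a control library, the ratios of reads were 345 (95% counting interval 118 to 1680) and 280 (136 to 698). In CPM, the HD-homo libraries of Ifit2 (15.7, 28.75 and 16.9) overlapped its control libraries (27.6, 28.75 and 28.77). The smallest values were those of Ifit2, -0.46 (edgeR adjusted p = 0.047), Samhd1, 0.25 (adjusted p = 0.021), and Eif2ak2, 0.79 (adjusted p = 8.8e-07). In HD-het against control cells 11 of these genes were higher, 3 (Isg20, Ifitm3 and Dhx58) were lower and 17 did not pass, with a median of 0.83, or 0.89 when Oasl1, which had no read in either line, was left out, and 33.8% of all tested genes were higher there. The 3 genes that were lower there were named after their values were seen. Between the HD lines 28 were higher in HD-homo cells and 1 was lower, with a median of 2.62, beside 36% higher among all tested genes. Of the 24, 21 were higher in HD-homo cells, a count that again includes Ifit1, Oasl2, Oas3 and Sp100.

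Partners and relatives of the effectors did not move as a block. Of 20 listed, 17 were tested, and 10 were higher and 2 lower when HD-homo cells were set against control cells, with a median log2 fold change of 0.28. Trim14 and Trim30a passed the filter through the HD-homo libraries alone, and 8 of the remaining 15 were higher and 2 lower, beside 29.6% and 28.9% of all tested genes. Lgals3, the galectin that Lgals3bp binds, was at 13.6 ± 1.08 CPM (SD, n = 3) in control, 23.6 ± 2.41 CPM (SD, n = 3) in HD-het and 373.4 ± 12.8 CPM (SD, n = 3) in HD-homo cells. Against control cells, Lgals3 was thus higher by 4.77 on the log2 scale in HD-homo (edgeR adjusted p = 8.9e-12) and 0.79 in HD-het cells (adjusted p = 1.1e-05). Unlike Lgals3bp, Lgals3 varied little between the HD-homo libraries. The galectin gene Lgals8 was higher in HD-homo cells (1.12, adjusted p = 1.3e-07), and Lgals1 was lower in both HD lines, by -0.93 in HD-homo and -1.0 in HD-het cells. Havcr2, which encodes Tim-3, had at most 11 reads per library and did not pass in either HD line. Nmi, the partner of Ifi35, was higher in HD-het (1.79, adjusted p = 4.4e-07) and in HD-homo cells (1.37, adjusted p = 3.4e-06). Xiap, the partner of Xaf1, was at 0.03 in HD-homo (adjusted p = 0.79) and rose by 0.31 in HD-het cells (adjusted p = 0.012).

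The partners of viperin and the relatives of Trim21 were mixed as well. Fdps, which encodes a sterol pathway enzyme bound by viperin, was lower in both HD lines (-0.91 in HD-homo, adjusted p = 0.0017, and -1.06 in HD-het cells, adjusted p = 5.1e-04), and Ciao1, which serves in iron-sulfur cluster assembly, was higher in both, by 0.21 and 0.28. Rsad1 did not pass in either line, and Cmpk1, the cytosolic counterpart of Cmpk2, was higher by 0.56 in HD-homo and 0.58 in HD-het cells. Trim25, a ubiquitin ligase of the RNA-sensing pathway, had 178, 179 and 159 reads in control, 1, 5 and 3 in HD-het, and 1175, 1320 and 1129 in HD-homo libraries. It thus went in opposite directions in the HD lines, with log2 fold changes of -5.88 in HD-het (edgeR adjusted p = 7.4e-09) and 2.64 in HD-homo cells (adjusted p = 5.2e-09). Trim56 was higher in both, by 1.87 in HD-het and 1.20 in HD-homo cells, and like Trim21 it had its higher level in HD-het cells (-0.68 from HD-het to HD-homo cells, adjusted p = 2.6e-06). Trim14 was higher in HD-homo cells (3.18, edgeR adjusted p = 2.3e-04). With 5, 4 and 1 control reads, its ratio of HD-homo to control reads was 9.24, with a counting interval from 4.83 to 19.8. Trim30a had 0 reads in each control library and 13, 26 and 303 in the HD-homo libraries, most of them in replicate 3, which is at least 35.4-fold above the same floor, or at least 5.36-fold without that library. In HD-het against control cells 7 of the 17 were higher and 4 lower, a share called close to the 65.1% of all tested genes, with a median of 0.043, or -0.040 without Trim30a, so the sign of that median rests on a gene with 1 read.

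**Figure D5:**
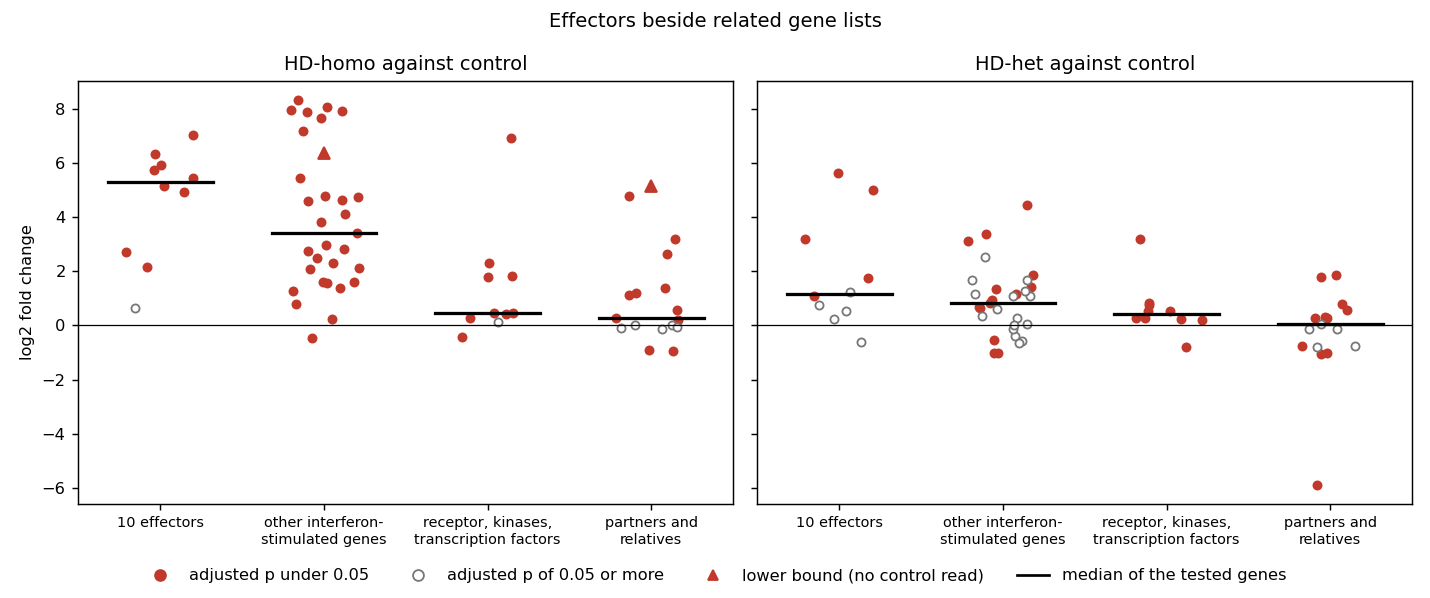
Log2 fold changes against control cells of the 10 effectors and 3 gene lists in HD-homo (left) and HD-het cells (right); points are genes, filled at an adjusted p under 0.05, and bars are medians. Triangles mark Oasl1 and Trim30a at their lower bounds, 6.36 and 5.15, in HD-homo cells. Both points are left out on the right, but the bars there still include these genes. The effectors have medians of 5.30 on the left and 1.16 on the right, beside 3.41 and 0.83 for the other interferon-stimulated genes.

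Because the libraries are bulk RNA, a change in the number of cells of a type and a change in RNA per cell cannot be told apart. Of 12 immune cell markers, 5 had no read in control cells and 4 none in each HD line. Aif1, Tyrobp, Cd3e and Ms4a1 were at 0 in all 9 libraries. Only 2 of the 12 were tested, Csf1r and Cd68. Csf1r averaged 0.544 CPM in control, 0.67 CPM in HD-het and 2.035 CPM in HD-homo libraries. Set against control cells it passed edgeR's test as higher for HD-homo (adjusted p = 3.8e-05) but not for HD-het cells (adjusted p = 0.36). Cd68 averaged 1.82, 3.47 and 2.45 CPM in that order of lines. It passed as higher for HD-het (adjusted p = 0.0030) but not for HD-homo cells (adjusted p = 0.12). The 12 markers summed to 2.64 to 2.91 CPM in control, 3.72 to 6.47 CPM in HD-het and 4.31 to 5.04 CPM in HD-homo cells. Summed over 5 astrocyte markers the level was 2.71 to 3.01 CPM, 1.10 to 1.59 CPM and 12.8 to 18.6 CPM, over 4 oligodendrocyte markers 0.507 to 0.933 CPM, 1.29 to 1.68 CPM and 1.53 to 2.45 CPM, and over 5 endothelial markers 0.773 to 1.08 CPM, 0.839 to 1.55 CPM and 1.01 to 1.54 CPM. The astrocyte sum in HD-homo cells was mostly Slc1a3, at 14.6 CPM, whereas Gfap was at 0.0380 CPM there, against 0.169 CPM in control cells, and Aqp4 had no read. The part of these marker levels in the effector differences was not tested.

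For Rsad2, Bst2 and Ifi27, the tested genes with the most similar profile over the 9 libraries were listed by Pearson's r of log2(CPM + 0.1), as a description only, since the 9 points come from 3 lines. Next to Rsad2 these were Tnfrsf11a (r = 0.991), Sox9 (r = 0.991) and Scel (r = 0.990), all with their highest mean in HD-homo cells, at 4.86, 68.0 and 3.03 CPM. Of 12015 genes compared, 601 had an r above 0.9 with Rsad2 and 573 with Ifi27, for which Ryk (r = 0.994), Rin2 (r = 0.993) and Acyp2 (r = 0.992) came first. Bst2 had 17 such genes, led by B3galnt1 (r = 0.937), Vac14 (r = 0.936) and Nudt8 (r = 0.932).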

How the data were processed

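The authors isolated total RNA, selected poly(A) RNA, made directional libraries and deposited raw read counts per gene symbol, with no normalization and 1 column per library. The submitters' processing notes name cutadapt, Bowtie 1.1.2, RSEM 1.3.0, DESeq2 and the builds GRCm38.p5 and mm10, without their roles. The effectors and gene lists were chosen with earlier results of these data known. The fit used edgeR 4.0.16 under R 4.3.3 (filterByExpr with a minimum count of 10, TMM factors, 1 mean per line over all 9 libraries, quasi-likelihood test, Benjamini-Hochberg adjustment over 13508 genes, threshold 0.05). Folds are ratios of mean normalized CPM. For several genes with only a few reads in a line, the ratio of summed reads is given with a 95% counting interval. That interval covers counting error only. Totals ran from 29507665 to 41197931 reads per library. Replicate libraries differed by 2.20 to 39.2 times the variance of counting, so none was merged. All effectors, any gene of the interferon, receptor and partner lists, and the 3 highest and 3 lowest of the other interferon-stimulated genes in HD-homo cells could be named, as could 3 genes of similar profile with a mean of at least 1 CPM. Positions come from GENCODE on GRCm38. The fit was tested on simulated counts with the same dispersion for all genes and changes planted only in well-covered genes. That test does not cover genes near the floor or with a spread as wide as that of the effectors in HD-homo cells. Alternatives were DESeq2 1.42.0, other scalings, filters and prior counts, the compared lines alone, a replicate block and leaving out each library.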

Additional observations from a re-analysis of the deposited data

How the results depend on the processing

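Of 418 values of single effectors under alternatives, 406 kept their direction and their side of the threshold, 5 lost the call (all for Trim21 between the HD lines), 7 gained one (Bst2, Lgals3bp and Ifi27) and 0 changed sign. The count of effectors that differed from control cells lay between 9 and 10 in HD-homo and between 5 and 7 in HD-het cells, and between the HD lines between 8 and 10. With the replicate number as a replicate block, 9, 6 and 10 effectors passed, and Lgals3bp in HD-het against control cells (0.50, adjusted p = 0.046) and Ifi27 between the HD lines (0.57, adjusted p = 0.024) were gained. The deviations of same-numbered libraries were correlated with r from 0.0226 to 0.245 over the 9 pairs, and since it was not above 0.1 in each, the numbers were not taken as pairs. In 15 of 18 comparisons a library correlated best with the same number in another line, which is a hint from the data of a shared structure. The log2 ratio of Rsad2 to Cmpk2, with 0.1 CPM added to both, was 1.14 higher in HD-homo than in control and 1.20 higher than in HD-het cells (exact permutation p = 0.10, the smallest possible). No conclusion is drawn from it, since the added 0.1 CPM pulls the ratio toward 0 in the low lines and sets part of this difference. Both genes also passed the filter through the HD-homo libraries alone. Between HD-het and control cells the difference in the log2 ratio was -0.05 and had no stable sign, being 0.0016 with 1 CPM added and running from -0.57 to 0.35 with each library left out, on counts of 0 to 7. Depth limits Rsad2, Cmpk2 and Ifi44 in control cells, where 3 to 7 reads in all set the ratios, and a prior count of 2 lowered their log2 fold changes in HD-homo against control cells to 5.17, 4.15 and 6.04, and that of Ifi44 in HD-het cells to 4.06.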
